A study of Mus musculus with 8 samples.

Results

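The 2 mouse embryonic stem cell lines behind a pair of conditional knockouts, one for Mettl14 and one for Mettl3, were compared with each other in their control state. The members were 4 of the 8 libraries of the study, taken by their titles: 2 of Mettl14 control and 2 of Mettl3 control. All were embryonic stem cells of the C57BL/6 strain grown in serum medium with LIF, the GSK3 inhibitor CHIR99021 and the MEK inhibitor PD0325901. RNA came from the nuclear fraction, was depleted of ribosomal RNA with RiboMinus and was made into stranded total RNA libraries with a SMARTer kit (v2). The other 4 libraries, 2 of Mettl14 cKO (conditional knockout) and 2 of Mettl3 cKO, enter below only to show whether the lines also differed there. The labels give no passage number, parental line, clone, feeder layer, karyotype or knockout method, and they do not say whether the controls carried the unrecombined conditional alleles. Whether the 2 libraries of each group are separate cultures is not stated, so each p-value reflects only how far these libraries vary, which may be technical.

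Embryonic stem cells hold a self-renewing state through a network of transcription factors around OCT4, SOX2 and NANOG, and inhibition of GSK3 and MEK with LIF keeps this network in its naive form. Sister cultures can nevertheless differ in how many cells have left that state, in imprinting and in chromosome content, so a knockout is usually read against a control of its own line. The enzyme METTL3 and its RNA-binding partner METTL14 together methylate adenosines of RNA at the N6 position, which gives the mark m6A.

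In outline, Mettl14 control had more RNA of the pluripotency network, of ribosomal proteins, of replication genes and of the PRC2 complex. Mettl3 control had more RNA of fibrillar collagens, contractile proteins, YAP targets and immediate-early genes. Of 21782 genes tested, 14759 differed between the 2 controls at an adjusted p under 0.05 (edgeR, quasi-likelihood test, Benjamini-Hochberg), which is what "called" means throughout (67.8% of all genes). Of these, 7329 were higher in Mettl14 control (33.6%) and 7430 lower (34.1%). At least 2-fold differences among them numbered 2251 higher (10.3%) and 4654 lower (21.4%). Fold changes are on the log2 scale, Mettl14 control over Mettl3 control, with their standard error. Levels are in CPM, counts scaled to library size multiplied by a TMM scaling factor for each library. The factors were 0.834 and 0.840 in Mettl14 control and 1.140 and 1.151 in Mettl3 control. They raise every Mettl14 control level relative to Mettl3 control. Any share of a gene list has to be read against the shares of all genes given above, since most genes were called.

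Fold changes were lower for scarcer genes. Median log2 fold change ran from -1.69 in the least abundant eighth of the genes to 0.52 in the most abundant eighth. The value at the low end is in part set by the low-count filter, which a scarce gene can pass through the 2 libraries of 1 group alone, and it was -0.43 between the cKO groups. Abundant genes are those whose average log2 CPM was 3 or more. Among these 10099 genes, 8457 were called (83.7%): 5846 were higher (57.9%) and 2611 lower (25.9%) in Mettl14 control, and their median was 0.30, against -0.09 for all genes. Sums over olfactory and vomeronasal receptor genes, which are not expected to be active in stem cells, were 107 and 120 CPM in Mettl14 control and 403 and 407 in Mettl3 control (210 of 1429 such genes passed the low-count filter). Between 31803 and 32268 genes had a count in Mettl14 control libraries and between 40682 and 40752 in Mettl3 control, at totals of 17235889 to 18982929 counts. The part of this low-level signal in the results for scarce genes was not tested, so for many lists the count among abundant members is given too. Scaling bore on the split too. Upper-quartile scaling lowered fold changes by 0.22 and gave 5642 higher and 9450 lower, scaling on abundant genes alone lowered them by 0.31 and gave 4057 and 4168, and omission of the low-count filter raised them by 0.14. Log2 differences smaller than about 0.3 therefore have no settled sign, and medians of lists near 0 can turn with the scaling. Scaling by library size alone was not among the alternatives run.

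**Figure D1:**
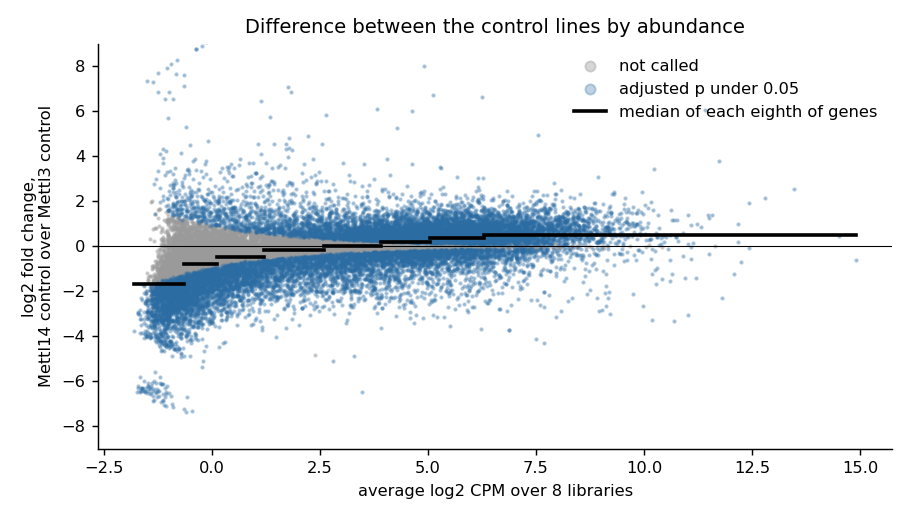
Log2 fold change of Mettl14 control over Mettl3 control (vertical axis) against average log2 CPM over the 8 libraries (horizontal axis) for the 21782 genes tested, blue where the adjusted p was under 0.05; black lines are the medians of 8 equal groups of genes by abundance, which rise from -1.69 to 0.52. 9 genes lie outside the vertical limits of 9.

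The targeted genes were checked first. Mettl14 (ENSMUSG00000028114.16, chromosome 3, 123368297 to 123386108, minus strand, mm10) stood at 58.3 and 55.0 CPM in Mettl14 control and at 30.1 and 26.7 in Mettl3 control. The groups did not overlap, as for 83.4% of all genes, and the log2 difference was 0.99 ± 0.07 (SE, edgeR, adjusted p = 1.5e-28). On chromosome 14 (52294841 to 52305128, minus strand), Mettl3 (ENSMUSG00000022160.18) stood at 40.2 and 43.8 CPM against 37.9 and 36.1, a log2 difference of 0.18 ± 0.07 (edgeR, adjusted p = 0.0139) whose sign turned under upper-quartile scaling and under scaling on abundant genes. Its raw counts ran the other way, at 628 and 697 in Mettl14 control and 771 and 713 in Mettl3 control. The exons of Mettl3 overlap Tox4 on the opposite strand. In Mettl14 cKO, Mettl14 stood at 27.8 and 30.2 CPM, and in Mettl3 cKO Mettl3 stood at 19.8 and 18.6 CPM. The control level of Mettl14 thus differed between the lines, and that of Mettl3 did so by an amount within the scaling shift.

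The pluripotency network was higher in Mettl14 control. Of 13 core factors and partners, 12 were higher and 1 lower (median 0.91), and of 20 naive genes 19 were higher and 0 lower (median 1.07), against a median of 0.30 over all abundant genes. Pou5f1 (ENSMUSG00000024406.16, chromosome 17, 35506018 to 35510772, plus strand), which encodes OCT4, the factor without which the pluripotent state is lost, had 571 and 548 CPM in Mettl14 control and 81.6 and 77.8 in Mettl3 control. Both Mettl14 control libraries were far above both Mettl3 control libraries, and the difference was 2.81 ± 0.03 (adjusted p = 7.1e-112), or 7.02-fold. Sox2, its DNA-binding partner, had 86.2 and 88.3 CPM against 36.7 and 35.9 (1.27 ± 0.06). Nanog had 186 and 194 CPM against 102 and 101 (0.90 ± 0.04). OCT4 RNA thus differed more widely than the RNA of either partner. L1td1, an RNA-binding protein gene under OCT4 and NANOG, was higher by 1.54, as were Tdgf1, a Nodal co-receptor (1.22), and Lin28a, a let-7 antagonist (1.28). The exception was Utf1, a chromatin-bound factor, which was lower (12.5 and 11.9 CPM against 18.8 and 19.03; log2 difference -0.63).

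Among naive factors, the greatest abundant difference of those named here was that of Zfp42, which encodes REX1, the classical naive marker, at 213 and 206 CPM against 57.7 and 57.9 (1.86 ± 0.04). Esrrb, an orphan nuclear receptor, had 465 and 470 CPM against 203 and 204 (1.20 ± 0.03), and Tfcp2l1 972 and 971 against 447 and 451 (1.11 ± 0.02). Klf4 (1.22) and Klf5 (1.23) differed by about as much as these, and Klf2, which is kept low where ERK is active, by 0.39. Spic was not called (3.65 and 4.21 CPM against 3.54 and 3.34). Both lines therefore expressed naive factors, at unequal levels. Genes of the formative and primed epiblast were mixed, with 10 higher and 5 lower of 18, 5 and 5 of 10 abundant, and a median of 0.39 that became -0.05 with scaling on abundant genes. The primed markers Fgf5 (0.768 and 0.753 CPM against 1.03 and 0.456) and Otx2 (2.56 and 3.70 against 3.15 and 2.83) stayed at low levels with overlapping groups, while Nkx1-2 was higher in Mettl14 control (15.2 and 15.8 CPM against 3.20 and 2.48; 2.45 ± 0.16). The de novo DNA methyltransferase genes Dnmt3l (0.77) and Dnmt3a (0.75) were higher as well.

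**Figure D2:**
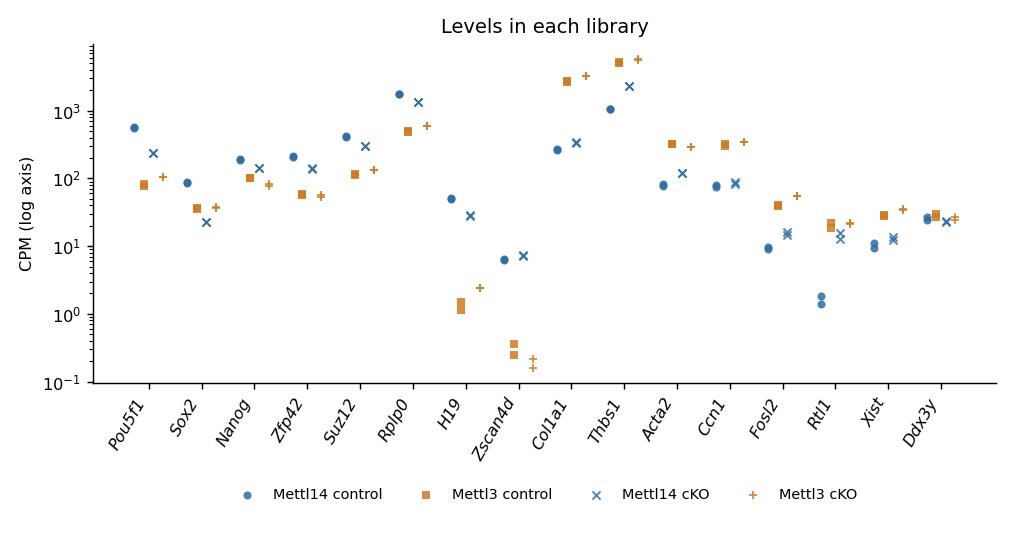
CPM (log axis) of 16 genes in each of the 8 libraries, 2 points a group; filled symbols are the controls and crosses the cKO libraries, blue for the Mettl14 line and orange for the Mettl3 line. Pou5f1 runs from 571 and 548 CPM in Mettl14 control to 81.6 and 77.8 in Mettl3 control, Col1a1 from 274 and 266 to 2743 and 2670, and Ddx3y is at like levels in all groups.

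The reverse held for the markers of fibroblasts, the cells of connective tissue that secrete collagen. All 21 tested members of this list, which has 23, were lower in Mettl14 control (median -2.31), among them all 16 abundant members. Summed over the list, the level was 3712 and 3716 CPM in Mettl14 control and 15139 and 14730 in Mettl3 control. No member had 0 counts in all 4 libraries. In bulk RNA, fewer cells of a type and less RNA per cell cannot be told apart. Col1a1 (ENSMUSG00000001506.10, chromosome 11, 94936224 to 94953042, plus strand), the main chain of type I collagen, had 274 and 266 CPM in Mettl14 control and 2743 and 2670 in Mettl3 control. It was 10.03-fold higher in Mettl3 control (log2 difference -3.33 ± 0.03, adjusted p = 3.2e-137). Its partner chain Col1a2 had 184 and 185 CPM against 1837 and 1742 (-3.28 ± 0.03), and Col5a1, which nucleates collagen fibrils, 114 and 113 against 934 and 911 (-3.02 ± 0.03). Lox, the enzyme that crosslinks collagen, was lower too (-2.31). The mesenchymal receptor gene Pdgfrb had 20.1 and 21.97 CPM against 73.8 and 75.8 (-1.83 ± 0.06), and Prrx1, a mesenchymal transcription factor gene, 13.6 and 12.9 against 37.96 and 36.2 (-1.49 ± 0.09). Some members were scarce in both lines: Thy1 had 0.832 and 1.07 CPM against 3.39 and 2.73, and Dcn 0.512 and 0.377 against 4.13 and 4.302. Their direction was that of the collagens, at levels where the olfactory receptor genes above were also lower in sum.

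Contractile and YAP target genes moved with the collagens. All 14 contractile and mesenchymal cytoskeleton genes were lower in Mettl14 control (median -1.45), 13 of 13 among the abundant ones. Acta2, smooth muscle actin, had 76.7 and 83.0 CPM against 325 and 324 (-2.02 ± 0.04), Tagln -1.96 and Flna, which crosslinks actin filaments, -1.25. Vim, the intermediate filament of mesenchymal cells, had 641 and 629 CPM against 999.7 and 961 (-0.63 ± 0.02). Mesenchymal transcription factors did not follow as 1 group, with 2 higher and 3 lower of 6: Zeb1 was higher (0.63), and Zeb2 (-1.44) and Twist2 (-1.74) lower. Of 12 basement membrane genes, 10 were lower and 2 higher (median -0.88). Hspg2, which encodes perlecan, had 695 and 699.6 CPM against 1871 and 1911 (-1.44 ± 0.02), and Col4a1 (-1.92) and Col4a2 (-2.17), whose gene models overlap head to head, were lower; the laminin chains Lamc1 (0.21) and Lama1 (0.22) were higher, but their sign turned under upper-quartile scaling and under scaling on abundant genes.

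YAP is a coactivator that enters the nucleus in spread, stiff or sparse cells and binds DNA through TEAD factors. All 10 listed YAP and TEAD targets were lower in Mettl14 control (median -1.53), and all 10 are abundant, although Tead1 itself differed by only -0.09, less than the scaling shift, and 9 of 10 were called without the low-count filter. Thbs1, a secreted matrix glycoprotein, had 1058 and 1067 CPM against 5164 and 5109.9 (-2.27 ± 0.02), and Ccn1, a matrix-associated signalling protein, 74.6 and 79.7 against 304 and 319 (-2.01 ± 0.04). Ankrd1 differed by -1.48 and Amotl2, a feedback inhibitor of YAP, by -0.74. The groups did not overlap for any of these 4 genes, as for 91.3% of abundant genes. RefSeq promoters of the GRCm38.p6 build, the 250 bases before the start of transcription, were held for 6 of the 10 genes. The TEAD core motif GGAATG was searched on both strands (CATTCC), and a gene counted if any of its promoters held it. It was found for 5 of these 6 genes and for 3880 of all 27025 genes with a promoter (14.4%). The targets were listed for their known regulation by TEAD, and a match describes letters, not binding. The 3 shown are members whose RNA differed and whose promoter holds the motif, in capitals:
Ccn1: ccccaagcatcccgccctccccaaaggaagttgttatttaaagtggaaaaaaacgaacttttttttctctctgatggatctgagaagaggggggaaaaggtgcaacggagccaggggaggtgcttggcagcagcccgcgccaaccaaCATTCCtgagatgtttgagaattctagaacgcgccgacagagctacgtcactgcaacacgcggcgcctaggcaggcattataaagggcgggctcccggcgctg
Ankrd1: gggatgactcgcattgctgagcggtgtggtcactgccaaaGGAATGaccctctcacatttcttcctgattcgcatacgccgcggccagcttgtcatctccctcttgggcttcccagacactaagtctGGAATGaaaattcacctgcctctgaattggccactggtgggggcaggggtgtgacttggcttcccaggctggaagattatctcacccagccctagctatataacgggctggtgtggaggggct
Amotl2: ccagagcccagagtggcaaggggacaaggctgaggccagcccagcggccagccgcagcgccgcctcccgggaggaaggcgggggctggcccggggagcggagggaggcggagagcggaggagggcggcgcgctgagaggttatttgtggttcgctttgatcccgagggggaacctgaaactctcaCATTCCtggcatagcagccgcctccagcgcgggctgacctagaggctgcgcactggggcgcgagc
They lie at chr3:145649986-145650235 on the minus strand, chr19:36119845-36120094 on the minus strand and chr9:102717554-102717803 on the plus strand. The motif starts 103 bases before the start of transcription in Ccn1, 210 and 123 bases before it in Ankrd1 and 65 bases before it in Amotl2. Lats2, whose window lacks the letters, was lower too (-0.44).

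**Figure D3:**
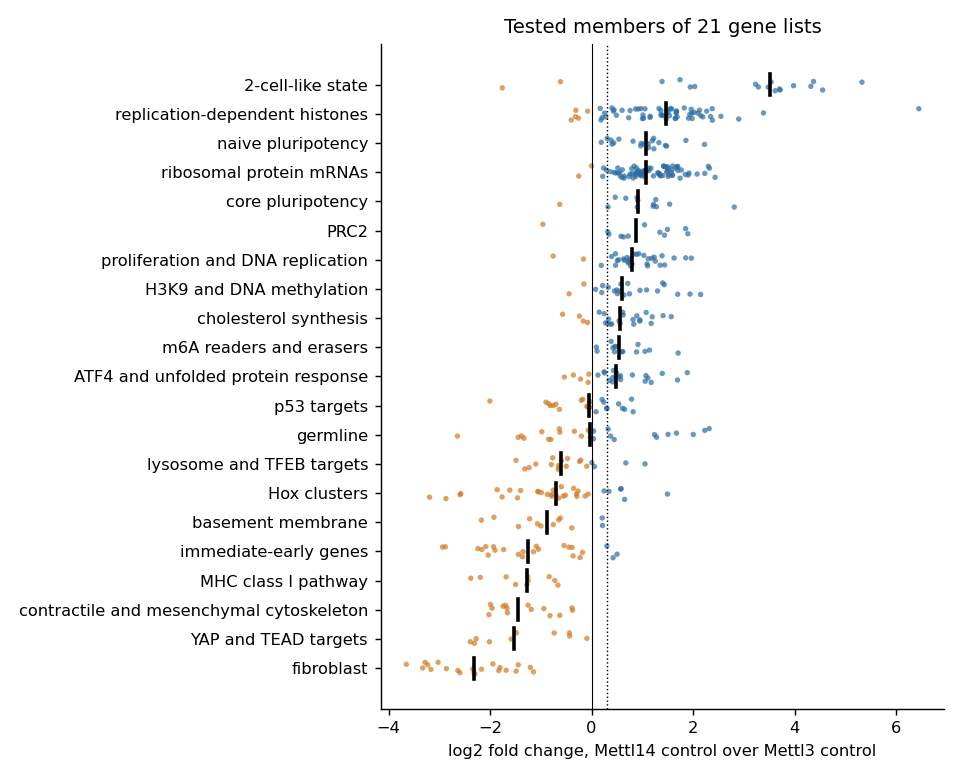
Log2 fold change of Mettl14 control over Mettl3 control for every tested member of 21 gene lists (points, blue above 0 and orange below); thick lines are list medians, from 3.51 for the 2-cell-like state to -2.31 for fibroblast markers, and the dotted line is the median of all abundant genes, 0.30.

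Signalling genes upstream of these programmes differed one by one. In the LIF pathway 3 of 13 genes were higher and 5 lower (median -0.16). The receptor gene Lifr was higher in Mettl14 control (119 and 121 CPM against 75.3 and 76.2; 0.66 ± 0.04), the ligand gene Lif lower (8.45 and 9.17 against 24.8 and 25.1; -1.50 ± 0.11), and the related receptor gene Osmr lower (-2.01). Of ERK feedback genes and targets, 7 were higher and 6 lower of 16, with a median of 0.05 that turned under upper-quartile scaling (-0.17); Etv5 was higher by 0.83 and Epha2 differed by -0.37. Wnt targets, which CHIR99021 keeps active, were also split at 8 higher and 5 lower of 16. Cdx1 (1.52) and Notum (1.56) were higher, and Rnf43, a negative regulator of Wnt receptors, lower (-1.58). BMP and Nodal targets had 3 higher and 6 lower of 10, with Id2 at -0.74 and Smad6 at -1.41. Immediate-early genes, the first to respond to serum, were mostly lower: 20 of 24 were lower and 3 higher (median -1.25), and of 12 abundant members 9 were lower and 3 higher. Fosl2, a subunit of the AP-1 factor, had 9.60 and 8.98 CPM against 38.7 and 40.1 (-2.08 ± 0.09), Jun 30.1 and 29.4 against 66.3 and 65.0 (-1.14 ± 0.06), and Dusp1, a MAP kinase phosphatase, 35.6 and 35.1 against 73.4 and 77.0 (-1.09 ± 0.06). Jund, another AP-1 subunit gene, was higher in Mettl14 control (0.42).

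Many genes of other lineages were scarce in both lines. For primitive endoderm, 0 of 14 tested genes were higher and 7 lower, but its master regulators were not among the 7: Gata6 had 2.11 and 2.76 CPM against 2.95 and 3.69, Gata4 2.496 and 3.39 against 3.15 and 3.49, and Sox17 0.768 and 0.314 against 0.738 and 1.06. Those called include Dab2, an endocytic adaptor (-1.73), and Thbd (-2.29), the only 2 abundant members. Trophectoderm genes had 3 higher and 6 lower of 18, 3 and 5 of 12 abundant, with a median near 0 that changed sign between scalings; Eomes was higher (21.8 and 21.7 CPM against 9.49 and 8.20; 1.30 ± 0.11) and Cdx2 lower (1.15 and 1.95 against 3.59 and 3.19). Mesoderm genes had 0 higher and 5 lower of 11, none of them abundant, and T, the primitive streak factor, overlapped between groups (1.73 and 0.628 CPM against 1.97 and 1.67). Of neuroectoderm genes, 3 were higher and 4 lower of 15, 2 and 2 of 6 abundant; Sox1 was higher (35.2 and 40.9 CPM against 11.4 and 11.9; 1.71 ± 0.09) and the cytoskeletal genes Map2 (-1.45) and Nes (-0.73) lower. Hox genes had 1 higher and 14 lower of 33, with a single abundant member. Germline genes were split evenly, 8 higher and 8 lower of 25 and 4 and 4 of 10 abundant, with a median near 0 whose sign turned in several alternatives: Hormad1, a meiotic axis gene, was higher (17.3 and 17.1 CPM against 3.98 and 2.88; 2.32 ± 0.15) and the meiotic cohesin gene Stag3 lower (-0.85). Endothelial genes had 2 higher and 5 lower of 8, 1 and 2 of 3 abundant, and blood and macrophage genes 0 higher and 6 lower of 9, 0 and 1 of 2 abundant; Ptprc, the general marker of blood cells, had 0.512 and 0.753 CPM against 2.07 and 1.92. Epithelial junction genes had 3 higher and 10 lower of 15, but 3 and 5 of 9 abundant with a median of -0.09: Cldn6 (2.82 and 2.57 CPM against 21.7 and 19.8; -2.94 ± 0.14) and the membrane protease gene St14 (-1.65) were lower, while Epcam was at 135 and 133 CPM against 132 and 136 and was not called.

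The 2-cell-like state was the scarce programme that went the other way. This state, which a small fraction of stem cells enters and leaves, is marked by the Zscan4 cluster, whose products act at telomeres. Of 18 tested genes, 15 were higher in Mettl14 control and 2 lower (median 3.51), with summed levels of 60.9 and 56.1 CPM against 12.3 and 10.7. Of the 18, 0 were abundant, and such scarce genes can pass the low-count filter through the libraries in which they are high. The count and median are in part set by that filter. Without it, 15 were higher and 1 lower of 21 (median 3.62). Zscan4d had 6.14 and 6.53 CPM against 0.246 and 0.354 (4.37 ± 0.32), Zscan4c 3.71 and 2.95 against 0.246 and 0.253 (3.70 ± 0.40) and Usp17lc 7.04 and 8.16 against 0.443 and 0.304 (4.32 ± 0.30). The exceptions were Duxf3, the Dux factor that activates the programme in the embryo (-1.76), and Sp110 (-0.61), whose call was lost in DESeq2 and when either Mettl14 control library was left out. The Zscan4, Usp17l and Tdpoz genes are near-identical copies, so the assignment of reads among them is uncertain, and they count as few independent genes.

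Among chromatin regulators, PRC2 genes and those of H3K9 and DNA methylation were mostly higher in Mettl14 control. Of 12 PRC2 genes, whose complex methylates H3K27, 11 were higher and 1 lower (median 0.88). Ezh2, the catalytic subunit, had 214 and 203 CPM against 55.4 and 56.4 (1.90 ± 0.04), Suz12 417 and 406 against 117 and 111 (1.85 ± 0.03), and the targeting subunit Mtf2 596 and 589 against 221 and 217 (1.44 ± 0.03). Phf1, another accessory subunit, was lower (-0.96). PRC1 genes had 11 higher and 5 lower of 24, 10 and 5 of 20 abundant (against 57.9% higher among all abundant genes), and their median of 0.13 turned to -0.09 under upper-quartile scaling; Rnf2, the catalytic RING protein, was higher by 2.04 (125 and 128 CPM against 30.5 and 30.9) and Kdm2b by 1.00. Enzymes of H3K4 and H3K27 methylation had 14 higher and 3 lower of 18 with a median of 0.35, near that of all abundant genes, and 9 and 6 with scaling on abundant genes (median 0.04), with Kdm1a at 1.54 and Ash2l at 1.33. Genes of H3K9 and DNA methylation had 19 higher and 1 lower of 22 (median 0.61), or 16 and 5 with scaling on abundant genes (median 0.30). Their HP1 members Cbx5 (829 and 817 CPM against 218 and 211; 1.94 ± 0.03) and Cbx3 (2.15) and the remodeler gene Hells (1.70), which DNA methylation of repeats needs were among the higher. All 8 m6A writer genes were higher (median 0.54), 4 of 8 with scaling on abundant genes. Zc3h13, which anchors the writer in the nucleus, had 423 and 410 CPM against 243 and 233 (0.81 ± 0.03) and Wtap, the adaptor, 163 and 152 against 91.1 and 92.8 (0.77 ± 0.04). All 14 reader and eraser genes were higher (median 0.54), among them Hnrnpc (1.70), Fmr1 (1.05) and Hnrnpa2b1 (0.89). With scaling on abundant genes, 11 of the 14 were higher and 2 lower (median 0.23).

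RNA of the growth machinery was higher in Mettl14 control. Ribosomal protein genes had 76 higher and 1 lower of 79 (median 1.06), with a summed level of 33233 and 33083 CPM against 12943 and 12636. Rplp0, of the ribosomal stalk, had 1761 and 1758 CPM against 501 and 478 (1.85 ± 0.02), Rpl26 differed by 2.32 and Rpl19 by 1.90. Many of these genes have processed pseudogenes, which makes their read assignment uncertain. In this nuclear fraction the share of mitochondrial reads was also higher in Mettl14 control. The nuclear-retained RNAs Malat1 (-0.61) and Neat1 (-1.39) were lower. Of 16 nuclear long noncoding RNAs, however, 10 were higher and 3 lower (median 0.26). The part of these differences in the result for ribosomal protein genes was not tested. Replication-dependent histone genes, transcribed in S phase, had 55 higher and 1 lower of 63 (median 1.47); the linker histone gene Hist1h1a had 431 and 446 CPM against 99.3 and 106 (2.1 ± 0.03). Proliferation and replication genes had 31 higher and 2 lower of 33 (median 0.80). Top2a, the topoisomerase of dividing cells, had 1732 and 1680.3 CPM against 638 and 619 (1.44 ± 0.02), Mcm3, of the replicative helicase, differed by 1.23 and Pola1, the primase-bound polymerase, by 1.26. Ccnd1 (-0.76), which drives entry into the cycle downstream of ERK, was 1 of the 2 that were lower; Foxm1 (-0.16), whose call was lost in DESeq2, without the low-count filter and in most fits that left out a library, was the other. The p53 targets were balanced, with 9 higher and 10 lower of 26 (median -0.04, of either sign by scaling).

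Metabolic lists were unequal. Glycolysis and hypoxia genes had 15 higher and 7 lower of 24 (median 0.45), near the background among their abundant members (13 and 6 of 21, median 0.36) and 10 and 8 of 21 with scaling on abundant genes (median 0.05): Pkm, pyruvate kinase, had 1827 and 1832 CPM against 556 and 558 (1.71 ± 0.02), Pfkp differed by 2.24 and Eno1 by 1.49, whereas Gapdh (-0.52) and the hypoxia target Adm (-2.67) were lower. Cholesterol synthesis had 21 higher and 2 lower of 25 (median 0.56), or 12 and 5 of 24 with scaling on abundant genes. Msmo1, a sterol oxidase, had 285 and 287 CPM against 99.2 and 93.2 (1.57 ± 0.03), and Insig1 differed by 1.41 and Cyp51 by 1.08. Genes of LXR targets and cholesterol efflux had 5 higher and 2 lower of 10, with a median of -0.08 that turned to 0.06 without the low-count filter, and Apoe, a lipoprotein, had 2390.0 and 2347 CPM against 937 and 879 (1.38 ± 0.02). ATF4 and unfolded protein genes had 19 higher and 2 lower of 25 (median 0.47), or 12 and 5 of 20 with scaling on abundant genes, with the amino acid synthesis genes Psat1 (1.69) and Asns (1.06) and the transporter gene Slc7a5 (1.39) among the higher. Heat shock, metal and oxidative stress genes had 8 higher and 5 lower of 14, with Hsph1 at 1.31 and Nqo1 at 1.37. Lysosome genes went the other way, with 3 higher and 14 lower of 19 (median -0.59): the protease genes Ctsl (245 and 256 CPM against 589 and 586; -1.23 ± 0.03) and Ctsd (-1.32) and the saposin precursor gene Psap (-1.10) were lower. MHC class I genes, which present peptides to T cells, had 0 higher and 8 lower of 10, and 5 of 5 abundant members were lower; Tapbp differed by -1.68 and H2-D1 by -1.25. Interferon response genes had 7 higher and 12 lower of 28. Of 9 abundant ones 5 were higher and 0 lower, close to the 57.9% of all abundant genes, or 3 and 4 of 9 with scaling on abundant genes. The RNA sensor gene Ddx58 was higher (0.89), and Gbp2, a scarce member, was lower.

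Messenger RNAs of the mitochondrial genome had 7 higher and 1 lower of 10 (median 1.30); mt-Nd1 had 2796 and 2844 CPM against 895 and 941 (1.62 ± 0.02), while mt-Co1 had 2915 and 2944 against 2761 and 2943 and was not called, so the genes of 1 polycistronic genome did not differ alike. Mitochondrial RNA is made in the organelle, outside the nucleus. All reads on the mitochondrial genome made up 2.99% and 3.00% of all counts of Mettl14 control and 1.06% and 1.12% of those of Mettl3 control. Without ribosomal RNA the shares were 0.859% and 0.876% against 0.593% and 0.634%. Of nuclear long noncoding RNAs, 10 were higher and 3 lower of 16, or 5 and 6 of 14 with scaling on abundant genes, within which Neat1, the scaffold of paraspeckles, had 1005 and 1023 CPM against 2619.9 and 2683 (-1.39 ± 0.02), Malat1, of nuclear speckles, differed by -0.61 and Rn7sk, which holds the elongation factor P-TEFb inactive, by 1.38. The call of Malat1 was lost in limma-voom (adjusted p = 0.316), and in no other alternative run. Small nucleolar RNA genes had 51 higher and 29 lower of 193, 24 and 8 of 58 abundant, with a median of 0.21 that fell to 0 or below under 2 alternatives.

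The genes with the highest and lowest fold changes by rule were taken from called genes whose average log2 CPM was 1 or more. On the high side 6 of the 10 were copies of the 5S ribosomal RNA gene, which are near-identical; n-R5s194 had 273 and 304 CPM in Mettl14 control and 0 and 0.0506 in Mettl3 control. Their fold is not given, since counts in Mettl3 control were at or near 0. All genes of the nuclear ribosomal RNA class together held 0.0368% and 0.0422% of counts in Mettl14 control. In Mettl3 control they held 0.0335% and 0.0275%, so the class total differed far less than these copies. How reads were placed among the copies was not tested. The others were Mir6236 (110 and 140 CPM against 0.148 and 0.810), Hist1h4m (4.67 and 5.21 against 0.0492 and 0.0506), H19 and Lars2, the mitochondrial leucyl-tRNA synthetase gene (712 and 693 CPM against 22.3 and 23.7; 4.93 ± 0.04). Mitochondrial ribosomal RNA was 2.13% of counts in both Mettl14 control libraries and 0.463% and 0.488% in Mettl3 control. It was 0.764% to 0.766% in Mettl14 cKO and 0.507% to 0.522% in Mettl3 cKO. Lars2 likewise differed far more between the controls (4.93) than between the cKO groups (0.39). Whether reads of mitochondrial ribosomal RNA were counted for Lars2 was not tested, so its difference may not be that of the synthetase RNA. On the low side were Col1a1, the matrix protease genes Mmp3 (0.192 and 0.188 CPM against 2.80 and 3.59) and Mmp13 (0.448 and 0.439 against 5.66 and 4.50), Cspg4, a proteoglycan of pericytes (4.80 and 5.78 against 60.7 and 64.4; -3.56 ± 0.09), the collagen receptor gene Itga11 (4.42 and 3.58 against 42.6 and 41.8; -3.40 ± 0.11), Adra1d, H2-M2, Lrrc7, Rtl1 and Ccdc107. Ccdc107 (-3.73) lies beside the RNA gene Rmrp, and reads of the pair may be mixed. Of the 10 lowest, 5 are thus genes of the extracellular matrix or its receptors and proteases.

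Imprinted genes, expressed from 1 parental copy, differed in both directions: 10 were higher and 14 lower of 29 outside the Dlk1-Dio3 domain (median -0.23). H19 (ENSMUSG00000000031.16, chromosome 7, 142575529 to 142578143, minus strand), a maternally expressed noncoding RNA, had 51.2 and 50.4 CPM in Mettl14 control and 1.13 and 1.52 in Mettl3 control. The groups were 38.2-fold apart (5.26 ± 0.13, adjusted p = 4.1e-73). Its paternally expressed neighbour Igf2 had 3.26 and 2.64 CPM against 2.41 and 2.58 and was not called. Peg3, a paternally expressed zinc finger gene, had 867 and 865 CPM against 1714 and 1675 (-0.97 ± 0.02), Igf2r differed by -0.99 and Airn, the antisense RNA that silences it on the paternal copy, by -2.05. In the Dlk1-Dio3 domain the maternal RNAs Meg3 (372 and 369 CPM against 380 and 380) and Rian (653 and 647 against 606 and 618) were within the scaling shift of each other, while Mirg, the next one along, was lower (66.8 and 68.3 against 128 and 135; -0.96 ± 0.04). Rtl1 (chromosome 12, 109589193 to 109600330, minus strand), a paternally expressed retrotransposon-derived gene, had 1.41 and 1.82 CPM against 21.9 and 18.7 (-3.64 ± 0.16). The microRNA genes Mir127, Mir431, Mir432 and Mir433, lie opposite to it, and without a stated strand setting their reads cannot be told apart.

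Reads over microRNA genes of the same domain were lower too. Between Meg3 and Dio3, 40 microRNA genes were tested, of which 0 were higher and 19 lower in Mettl14 control (median -0.87), against 20 higher and 35 lower of 136 microRNA genes in all (median -0.26). In a total RNA library these reads are of precursors and host transcripts, not of the mature microRNA. The summed reads of the microRNA class ran opposite to its median. Mettl14 control libraries had a class share of 0.801% and 0.823%, while the Mettl3 control libraries had only 0.0525% and 0.0568%. Which genes made up this excess was not tested. RefSeq held entries for 97 of the 136. The mature sequences shown are from 3 called genes of this domain, picked after their values were seen. The seed, bases 2 to 8, is in capitals. None of the 3 seeds recurs among the sequences printed here, and the seeds of other microRNAs were not compared:
miR-411-5p: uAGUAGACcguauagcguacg
miR-1193-5p: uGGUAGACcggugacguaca
miR-654-5p: uGGUAAGCugcagaacaugugu
Mir411 had 2.18 and 1.19 CPM against 4.67 and 3.796 (-1.33 ± 0.25), Mir1193 3.71 and 3.52 against 5.80 and 6.53 (-0.77 ± 0.19) and Mir654 1.02 and 1.38 against 2.51 and 2.78 (-1.13 ± 0.30). The miR-290 cluster, the main microRNA family of naive stem cells, is shown because 3 of its members share 1 seed; let-7a, which opposes the stem cell state and is blocked by LIN28, stands below them:
miR-291a-3p: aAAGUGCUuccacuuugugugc
miR-294-3p: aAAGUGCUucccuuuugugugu
miR-295-3p: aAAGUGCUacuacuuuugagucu
miR-290a-3p: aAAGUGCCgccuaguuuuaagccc
let-7a-5p: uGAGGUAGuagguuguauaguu
Mir294 had 7.62 and 7.47 CPM against 12.5 and 10.5 (-0.61 ± 0.13), Mir291a 10.8 and 10.9 against 13.5 and 15.1 (-0.40 ± 0.11), and Mir295, which was not called, 10.2 and 10.7 against 11.5 and 12.1. Mir290a, at the start of the cluster, went the other way (33.3 and 32.3 against 21 and 23.9; 0.55 ± 0.08). Mirlet7a-1 was higher in Mettl14 control (4.80 and 4.08 CPM against 0.492 and 1.06; 2.51 ± 0.29), the line in which Lin28a RNA was also higher.

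Sex chromosome genes show that both lines carry Y-linked transcripts. Ddx3y, an RNA helicase gene of the Y chromosome, had 27.1 and 24.5 CPM in Mettl14 control and 29.8 and 26.9 in Mettl3 control, and Eif2s3y 4.61 and 4.21 against 4.97 and 4.81; neither was called. Uty (-0.42) and Kdm5d (1.28 and 2.26 CPM against 5.31 and 4.76; -1.50 ± 0.24), both demethylase-family genes, were lower in Mettl14 control. The other 3 called of the 7 tested Y-linked genes were higher at low levels: Uba1y (2.24 and 2.76 CPM against 0.295 and 0.557; 2.54 ± 0.39), Usp9y (1.33) and Zfy1 (1.84). Xist, the RNA that silences an X chromosome, had 9.54 and 11.2 CPM against 29.2 and 28.1 (-1.46 ± 0.10), and Tsix, its antisense partner, 46.8 and 48.5 against 37.1 and 38.1 (0.34 ± 0.07). The search for exons shared with other genes found none between Xist and Tsix. Whether unspliced reads of either gene were counted for the other, where counting ignored strand, was not tested. Of 8 genes whose copy number or structure varies among mouse strains, 2 were higher and 4 lower, with a median of -0.59 that became 0.21 with scaling on abundant genes. Nnt, which is truncated in the C57BL/6J substrain, was at 15.6 and 14.4 CPM against 15.3 and 15.5 and was not called. Ide, an insulin-degrading protease gene, had 297 and 287 CPM against 83.4 and 80.0 (1.84 ± 0.04), and Glo1, which detoxifies methylglyoxal, 76.3 and 78.0 against 35.9 and 37.5 (1.07 ± 0.06). Wdfy1 was lower (-0.43), as were Mx1, Mx2 and Nlrp1b, each under 2 CPM. Whether these loci differ in copy number was not measured.

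Genes of chromosome 8 were higher as a group in Mettl14 control. Its 578 abundant genes had a median log2 difference of 0.65, which is 0.35 above that of all abundant genes, and 76.6% of them were called higher, against 56.7% of the 9521 abundant genes elsewhere. All 4 consecutive blocks of equal gene number of the chromosome lay above the median of all abundant genes, by 0.24 to 0.50. By library, set against the mean of all 8, its median was 0.17 in both Mettl14 controls and -0.19 in both Mettl3 controls. The control groups did not overlap on the other chromosomes either, so the lack of overlap is not particular to chromosome 8. On chromosome 1, for example, the values were -0.03 in both Mettl14 controls and 0.03 in both Mettl3 controls. In the cKO libraries, which are separate, the chromosome 8 values were 0.18 in both of the Mettl14 line and -0.17 and -0.18 in the Mettl3 line. Chromosome 18 followed at 0.28 above all abundant genes (0.27 in the cKO libraries), with blocks from 0.18 to 0.36, and chromosomes 13 and 4 at 0.16 each (0.16 and 0.14 in the cKO libraries). Chromosome 7 was lowest of the numbered chromosomes, at -0.18 (-0.19 in the cKO libraries). With a limit of 5 in place of 3 for abundance, chromosome 8 lay 0.37 above and chromosome 13 only 0.07. Several named genes, among them Zfp42, Ash2l, Msmo1 and Slc7a5, lie on chromosome 8, but so do Col4a1 and Col4a2, which went the other way. DNA copy number was not measured.

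**Figure D4:**
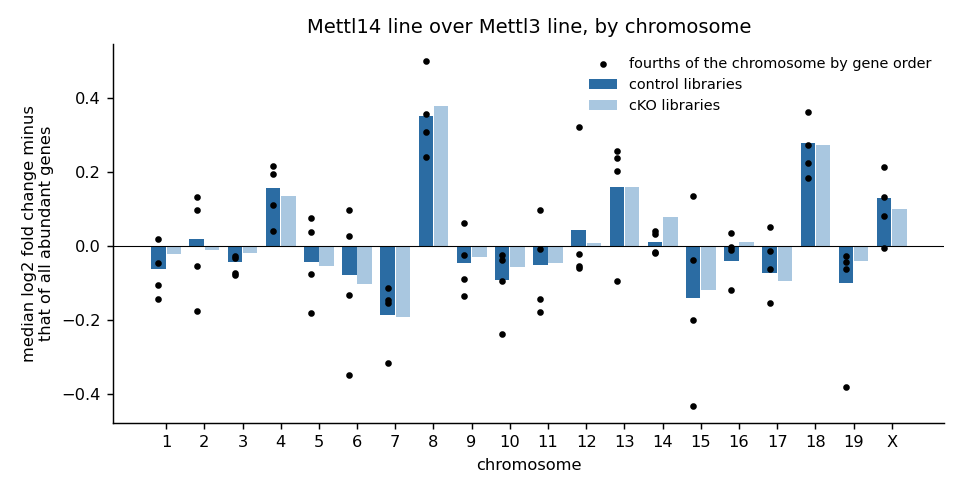
Median log2 fold change of abundant genes of each chromosome minus that of all abundant genes, for the Mettl14 line over the Mettl3 line in control libraries (dark bars) and cKO libraries (light bars); points are 4 blocks of each chromosome by gene order in the controls. Chromosome 8 lies at 0.35 and 0.38 and chromosome 18 at 0.28 and 0.27.

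The same line comparison in the cKO libraries uses none of the 4 control libraries, but it also holds whatever the knockouts changed. There 11618 genes were called (53.3%), 6187 higher in Mettl14 cKO (28.4%) and 5431 lower (24.9%). Among abundant genes 78.1% were called, 47.5% higher and 30.7% lower. Of the 14759 genes called between the controls, 86.1% had the same sign between the cKO groups, 60.9% were called with the same sign and 4.17% were called with the opposite one. Seen from the other side, the shared calls of like sign were 77.3% of those made between the cKO groups. Among 2108 abundant genes that differed at least 2-fold between the controls, 98.6% kept the sign and 96.8% were called again with it. Across the 10099 abundant genes the differences correlated at r = 0.839, a description across genes, which share libraries and are not independent replicates.

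Single genes show how far the line difference carried over. Col1a1 differed by -3.33 between the controls and -3.29 between the cKO groups (335 and 340 CPM against 3309 and 3280), and the difference of these differences was not called. Ccn1 differed by -2.01 in both. The Zscan4c difference was 3.70 and 3.94. By contrast, Pou5f1 differed by 2.81 between the controls and 1.21 between the cKO groups (241 and 240 CPM against 105 and 103). Sox2 differed by 1.27 and -0.71, so that its order was reversed in the cKO groups (22.9 and 22.4 CPM against 36.2 and 37.6), while Klf4 differed by 1.22 and -0.28, the latter under the 0.3 within which signs are not settled. H19 differed by 5.26 and 3.56, Thbs1 by -2.27 and -1.31, Rtl1 by -3.64 and -0.63 and Lars2 by 4.93 and 0.39. Ctsl, at -1.23 and -0.09, and mt-Nd1, at 1.62 and 0.00, differed between the controls and hardly between the cKO groups. By lists, fibroblast markers had 0 higher and 20 lower of 21 between the cKO groups (median -1.41), YAP and TEAD targets 0 and 10 of 10 (-1.17), naive genes 17 and 2 of 20 (0.93), 2-cell-like genes 15 and 0 of 18 (3.96) and ribosomal protein genes 72 and 4 of 79 (0.78). Lysosome genes had 11 higher and 6 lower of 19 there (0.09), against 3 and 14 between the controls.

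**Figure D5:**
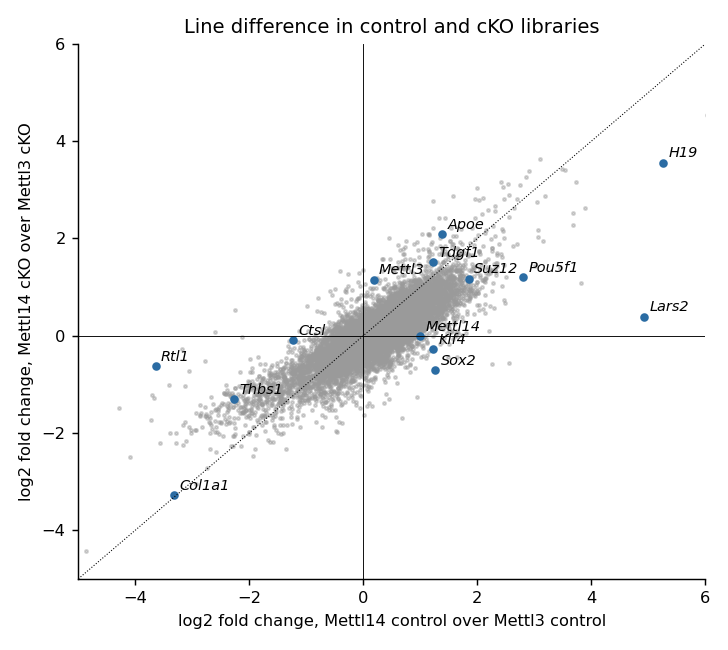
Log2 fold change of Mettl14 cKO over Mettl3 cKO (vertical axis) against that of Mettl14 control over Mettl3 control (horizontal axis) for 10099 abundant genes; the dotted line marks equal differences. Col1a1 lies on it at -3.33 and -3.29, Sox2 lies below the horizontal line at 0, and 8 genes are outside the limits.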

How the data were processed

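The deposited files hold raw gene counts that the authors made for each of 8 nuclear RNA libraries. Per the submitters' processing notes, the tools were CASAVA, Trimmomatic 0.38, HISAT2 2.1.0 and HTSeq, with the mm10 build. For strand setting, annotation release and multi-mapping reads, the choices were not given in the sources used here. Of 54446 genes, 54409 were matched to GENCODE M21, and 0 lines named no gene.

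Genes were kept by filterByExpr (minimum count 10) and scaled by TMM. One edgeR 4.0.16 robust quasi-likelihood model (R 4.3.3) with 4 group means was fitted to all 8 libraries, with 4 residual degrees of freedom, and gave the control difference, the cKO difference and the difference between them. All p-values were adjusted over all 21782 genes by Benjamini-Hochberg. Gene lists are described by counts and medians, with no test. Counts were also simulated for the control comparison, with 200 of 21782 genes changed and the spread of these libraries. There 46% of genes changed by 0.5 and 69% of those changed by 1 on the log2 scale were called, and 0.0198% of unchanged genes. These shares do not carry over to the data, where most genes were called and the scaling was not settled.

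The genes named are the targets, the 10 highest and 10 lowest fold changes of at least 1 in average log2 CPM without overlap between groups, up to 3 called members of each of 50 lists with the smallest p, and a set of marker genes. Exceptions to a list's direction, microRNA genes, mt-Co1, Epcam, Igf2, Klf2, Klf5, Lin28a, Lox, Dcn, Osmr, Airn, Tead1, Jund, Pdgfrb, Prrx1, Usp9y, Zfy1, Mx1, Mx2, Nlrp1b and the promoter examples lie outside that rule and were picked after their values were seen. The comparison and lists were chosen with earlier results of these data known. Promoters and microRNAs are from RefSeq. Alternatives were other scalings, filters, DESeq2 1.42.0, limma-voom (limma 3.58.1), the 4 compared libraries alone, a replicate block and leaving out each library.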

Additional observations from a re-analysis of the deposited data

Results flagged for a closer look

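For 11 genes the line difference was not the same in the controls as in the cKO libraries, by the difference of the 2 differences in the edgeR quasi-likelihood model with Benjamini-Hochberg adjustment, which called 7238 of 21782 genes (33.2%). The genes were among 14 whose 2 differences are set side by side, so their number says nothing about how common this is.

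The control difference minus the cKO difference (log2, edgeR) was 1.61 for Pou5f1 (adjusted p = 1.22e-61), 1.97 for Sox2 (adjusted p = 2.78e-42) and 1.503 for Klf4 (adjusted p = 5.92e-48). For Sox2 the 2 differences had opposite signs. Those of Klf4 did too, but its cKO difference of -0.28 is under the 0.3 within which signs are not settled. For Nanog the gap was not called. For H19 the control difference was greater by 1.70 (adjusted p = 1.16e-08), for Lars2 by 4.54 (adjusted p = 4.63e-89) and for mt-Nd1 by 1.62 (adjusted p = 4.73e-63). For genes higher in Mettl3 control, the values were -0.97 for Thbs1 (adjusted p = 4.2e-63), -3.02 for Rtl1 (adjusted p = 2.65e-27) and -1.14 for Ctsl (adjusted p = 1.81e-58). The targeted genes gave 1.00 for Mettl14 (adjusted p = 2.43e-16) and -0.97 for Mettl3 (adjusted p = 2.43e-15).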

How the results depend on the processing

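With scaling and testing on abundant genes alone, 8225 of 10096 genes were called between the controls, 4057 higher and 4168 lower in Mettl14 control, with 683 at least 2-fold higher and 1101 at least 2-fold lower. In the cKO comparison it gave 3919 higher, 375 at least 2-fold higher and 788 at least 2-fold lower; fewer genes were tested there. Upper-quartile scaling gave 1490 at least 2-fold higher between the controls. Leaving out each library in turn gave 13320 to 15541 called between the controls and 10165 to 11774 between the cKO groups. A replicate block gave 14754 called, 7336 higher and 7418 lower; the numbers do not show that libraries were paired (r = 0.1085 between replicate deviations of the 2 controls, with 2 numbers only). DESeq2 called 11924 genes, 6610 higher and 5314 lower. The chromosome 8 offset ran from 0.33 to 0.37.

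Of 148 genes given with a fold change, 135 kept direction and call in every alternative run. The sign turned for Mettl3 (-0.037 with upper-quartile scaling and -0.13 with scaling on abundant genes), Lamc1 (-0.0086 and -0.10) and Lama1 (-0.0031 and -0.095), and for Tead1 (0.045 without the low-count filter), whose call was also lost in DESeq2 and without each library in turn. Calls were lost, with no change of sign, for Klf2, Sp110, Foxm1, Malat1, Mir291a, Tsix, Jund, Usp9y and Zfy1 in at least 1 alternative each. Where scaling did not set the value, the cause was not tested. With 2 libraries a group, and no statement that they came from separate cultures, the spread between cultures was not measured.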
